A study of Mus musculus with 8 samples.

Results

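Angiotensin and endothelin are the peptide hormones behind the main vasoconstrictor systems of the heart, and 7 genes of these systems were followed here: Agt, Ace and Agtr1a on the angiotensin side and Edn1, Ece1, Ednra and Ednrb on the endothelin side. They were chosen by name, and each matched 1 of the 38293 gene identifiers counted. Polyadenylated RNA came from left ventricles of C57BL/6J mice whose coronary artery had been ligated and reopened (ischemia-reperfusion). Every heart was given 10 µl of UPy-PEG, a polymer hydrogel used as a drug depot, in each of 2 injections into the muscle, and was collected 3 days later. The gel was empty in 4 libraries, called hydrogel below, and carried antimiR-195, which blocks the microRNA miR-195, in 4 libraries. No group without injury or without gel was analysed here, so no level below can be set against that of an uninjured heart, and the labels state neither the age of the mice nor that each library came from its own animal. Replicates are numbered in accession order within a group.

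In the angiotensin system the precursor protein angiotensinogen is cut by renin to angiotensin I, which angiotensin-converting enzyme trims to angiotensin II; this peptide acts on the type 1 receptor to constrict vessels and promote growth and matrix deposition. In the endothelin system the precursor of endothelin-1, made largely by endothelial cells, is cut by endothelin-converting enzyme, and the peptide acts on receptor A of muscle cells and fibroblasts and on receptor B, which in endothelium releases nitric oxide and clears the peptide. Both receptor types signal through G proteins of the Gq class, and both systems are drug targets in heart failure or pulmonary hypertension.

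None of the 7 genes differed between antimiR-195 and hydrogel beyond the spread between libraries, and none had groups that did not overlap. The most variable were Agt, Edn1 and Agtr1a, and a single library, antimiR-195 replicate 2, had the lowest level of 5 of the 7 genes and the highest of Edn1. AntimiR-195 replicate 2 stood apart across the transcriptome: its correlations of log2 CPM (counts scaled for library size) with the other libraries were 0.944 to 0.970, against 0.978 to 0.991 among the rest. It was the lowest library for 33.1% and the highest for 30.8% of all tested genes. Total gene counts were 16872968 to 22751753 per library. Of the ventricular markers, light chains Myl2 and Myl3 were at 2765 to 5255 and 3114 to 6273 RPKM (reads scaled for gene length and library size). The ventricular markers Irx4 and Hey2 were at 15.3 to 21.2 and 1.33 to 2.16 RPKM. Of the atrial markers, light chain Myl7 was at 0.388 to 23.0 RPKM. Myl4, Sln and Dkk3 were at 0.655 to 4.56, 0 to 8.95 and 1.47 to 3.57 RPKM, but Nppa was at 544 to 2296 RPKM.

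A microRNA pairs with its targets mainly through its seed, bases 2 to 8 of the mature strand. The annotated 3′ UTRs of the 7 genes were searched for the words given below, which match all or part of the seed of miR-195. The mature sequence (RefSeq, GRCm38.p6, chromosome 11 at 70235062 to 70235082, plus strand) is printed with the seed in capitals. It is followed by the only matches found, shown as the messenger strand with the matched word in capitals.
mmu-miR-195a-5p: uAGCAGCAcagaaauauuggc
Ednra site: gcagcttagtaGCTGCTAgacaaagaatc
Ednrb site: ggaaagcgtgaGCTGCTAtgcctgagact
Both windows are from the GENCODE M21 transcripts in GRCm38, on the minus strand, at chr8:77663907-77663935 for Ednra and chr14:103816426-103816454 for Ednrb. The words searched on the messenger strand were TGCTGCTA (8mer), TGCTGCT (7mer-m8, contained in the 8mer) and GCTGCTA (7mer-A1, counted only outside an 8mer). Ednra held a 7mer-A1 match at base 1052 of a UTR of 1945 bases, and Ednrb a 7mer-A1 match at base 623 of a UTR of 2441 bases. A 7mer-A1 word pairs with bases 2 to 7 only, and its last A stands opposite the base before the seed. Neither UTR thus held the complement of the whole seed, bases 2 to 8. The UTRs of Ace, Agt, Agtr1a, Edn1 and Ece1 held no match to these words. The 7mer-m8 word without its last letter is shorter and not counted as a match here. It occurred 1 time each in Ace, Ece1 and Ednrb, 2 times in Ednra and 0 times in Agt, Agtr1a and Edn1. Of 12874 tested genes with an annotated 3′ UTR, 28.5% held a match, and the share was 35.6% among genes with a UTR about as long as that of Ednra and 41.8% for Ednrb. A match describes letters and does not show that the microRNA binds there.

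Agt encodes angiotensinogen, the precursor from which all angiotensin peptides are cut. Its level was 4.28, 6.30, 5.72 and 3.60 CPM in hydrogel replicates 1 to 4 and 4.37, 3.83, 4.66 and 2.33 CPM in antimiR-195 replicates 1 to 4. Hydrogel replicates 2 and 3 were the highest and antimiR-195 replicate 4 the lowest, while the other 5 libraries lay between 3.60 and 4.66 CPM, so the groups overlapped. The lowest value rested on 41 counts, with a 95% Poisson interval of 1.67 to 3.17 CPM that covers counting error only. Group means were 4.98 ± 1.25 and 3.80 ± 1.04 CPM (SD, n = 4), and the log2 fold change of antimiR-195 over hydrogel was -0.39 ± 0.25 (SE). The quasi-likelihood test of edgeR gave it, like the other 6 genes, an adjusted p of 0.9999. With each library left out in turn Agt ran from -0.52 without hydrogel replicate 4 to -0.23 without antimiR-195 replicate 4, and leaving out antimiR-195 replicate 2 gave -0.41. In tissue RNA such as this, fewer cells of a type and less RNA per cell cannot be told apart.

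Ace encodes angiotensin-converting enzyme, a membrane peptidase of endothelium that also degrades bradykinin. Its level was 60.3, 63.8, 64.8 and 85.1 CPM in the hydrogel libraries and 59.6, 53.996, 77.8 and 79.6 CPM in the antimiR-195 libraries, in order of replicate. A high cluster of hydrogel replicate 4 and antimiR-195 replicates 3 and 4 stood above the other 5 libraries, and it cut across the groups. The means of Ace were 68.5 ± 11.3 and 67.8 ± 12.9 CPM (SD, n = 4), and the log2 fold change was -0.02 ± 0.16, or 0.07 ± 0.14 without antimiR-195 replicate 2. Leaving out single libraries moved Ace from -0.11 (antimiR-195 replicate 4) to 0.10 (hydrogel replicate 4).

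Agtr1a encodes the main type 1 angiotensin receptor of the mouse heart. It was at 38.6, 54.8, 48.4 and 34.5 CPM in the hydrogel libraries and at 43.8, 20.5, 44.0 and 41.9 CPM in the antimiR-195 libraries. AntimiR-195 replicates 1, 3 and 4 lay between 41.9 and 44.0 CPM, inside the hydrogel range, and replicate 2 lay below every other library. The group means of Agtr1a were 44.1 ± 9.20 and 37.6 ± 11.4 CPM (SD, n = 4), and the log2 fold change was -0.23 ± 0.24. Without antimiR-195 replicate 2 it was -0.04 ± 0.14, with the antimiR-195 mean at 43.3 ± 1.15 CPM. Other single omissions gave Agtr1a -0.34 (hydrogel replicate 4) to -0.11 (hydrogel replicate 2).

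Edn1, which encodes the precursor of endothelin-1, was among the lowest of the 7 genes. Its level was 4.65, 5.67, 4.52 and 4.82 CPM with hydrogel and 5.60, 8.80, 4.66 and 4.84 CPM with antimiR-195. The other libraries lay between 4.52 and 5.67 CPM, and antimiR-195 replicate 2, the highest, was 1.77 times their mean. The means were 4.92 ± 0.517 and 5.97 ± 1.93 CPM (SD, n = 4), and the log2 fold change of 0.28 ± 0.22 was 0.03 ± 0.16 without that library. Edn1 lay between 0.24 and 0.38 with any of the other libraries left out.

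Ece1, which encodes the membrane metalloprotease that releases active endothelin, was the gene of the set with the smallest spread relative to its mean, a coefficient of variation of 11.7%. Its values were 75.9, 79.8, 68.9 and 81.7 CPM in the hydrogel libraries and 75.2, 60.1, 89.1 and 83.0 CPM in the antimiR-195 libraries. The antimiR-195 group held both the lowest and the highest library. The means of Ece1 were 76.6 ± 5.65 and 76.8 ± 12.5 CPM (SD, n = 4), and the log2 fold change was 0.01 ± 0.13, or 0.10 ± 0.10 without antimiR-195 replicate 2. Ece1 was lowest, at -0.0739, without antimiR-195 replicate 3.

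Ednra, the endothelin receptor of smooth muscle, cardiomyocytes and fibroblasts, was at 49.0, 37.4, 35.9 and 37.6 CPM in the hydrogel libraries and at 36.0, 22.9, 40.1 and 37.0 CPM in the antimiR-195 libraries. The middle 6 libraries lay between 35.9 and 40.1 CPM, with hydrogel replicate 1 above them and antimiR-195 replicate 2 below. Its means were 40.0 ± 6.05 and 34.0 ± 7.59 CPM (SD, n = 4), and the log2 fold change was -0.23 ± 0.18. For Ednra it was -0.09 ± 0.12 without antimiR-195 replicate 2 and -0.13 without hydrogel replicate 1, and the lowest value was -0.32, without antimiR-195 replicate 3. A processed transcript annotated on the opposite strand, 4933431K23Rik, overlaps Ednra and had 20 to 49 counts per library, against 419 to 927 for Ednra.

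Ednrb, the endothelin receptor of endothelium, was at 28.7, 34.7, 26.2 and 26.8 CPM in the hydrogel libraries and at 34.0, 24.8, 34.1 and 32.7 CPM in the antimiR-195 libraries. AntimiR-195 replicates 1, 3 and 4 and hydrogel replicate 2 formed the upper end, and antimiR-195 replicate 2 was the lowest. The means of Ednrb were 29.1 ± 3.87 and 31.4 ± 4.47 CPM (SD, n = 4), and the log2 fold change was 0.11 ± 0.14. Ednrb was at 0.20 ± 0.11 without antimiR-195 replicate 2 (edgeR, adjusted p 0.9992) and also at 0.20 without hydrogel replicate 2. It was at 0.06 without hydrogel replicate 3 or antimiR-195 replicate 1 and at 0.07 without hydrogel replicate 4 or antimiR-195 replicate 3.

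**Figure D1:**
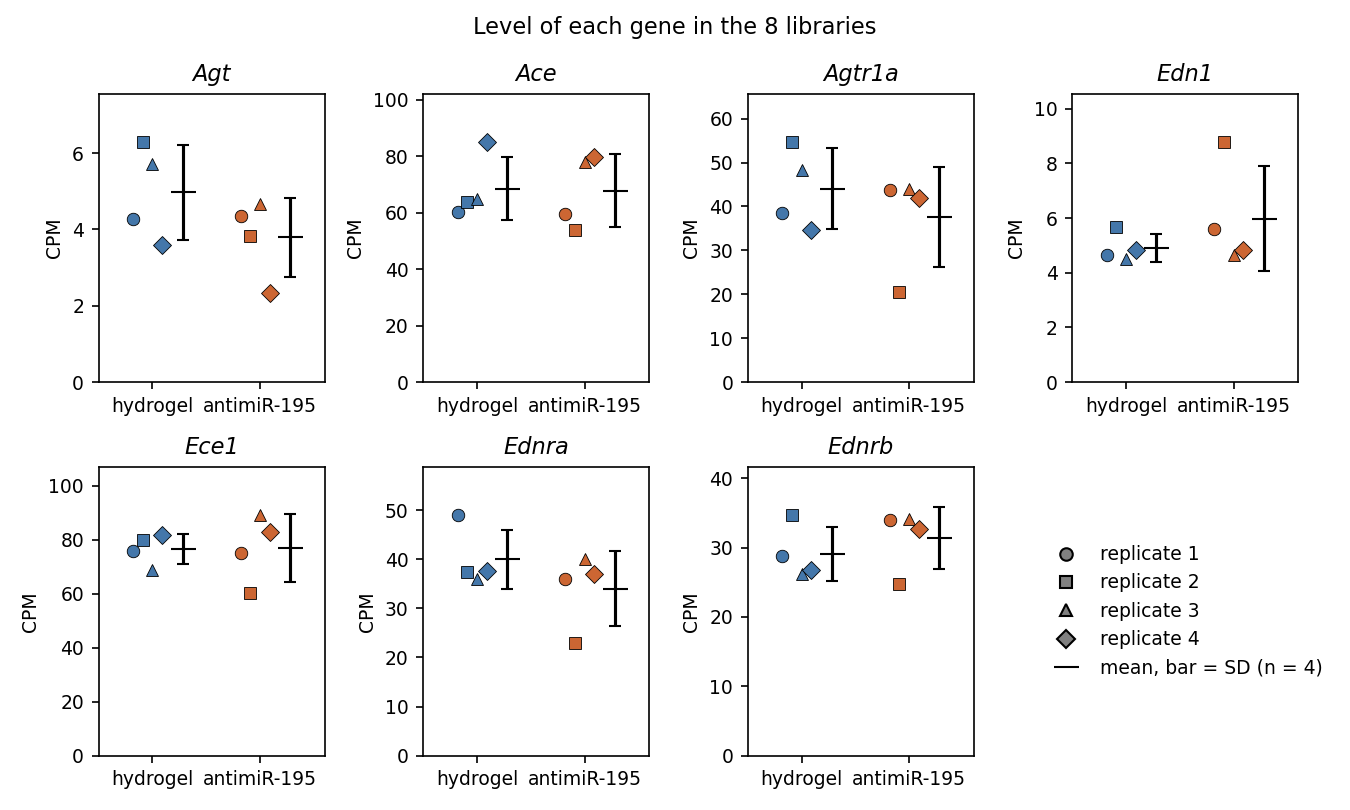
Level of each gene in CPM (vertical axes from 0) in the 4 hydrogel and 4 antimiR-195 libraries; marker shapes give the replicate, the dash the group mean and the bar the SD. The square of antimiR-195 replicate 2 lies lowest for Ace, Agtr1a, Ece1, Ednra and Ednrb and highest for Edn1.

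Across all genes the test called 0 of 13972, or 0%, at an adjusted p below 0.05, and 0 of the 7 genes was called. At an unadjusted p below 0.05 edgeR's quasi-likelihood test had 1.27% of all genes and 0 of the 7, and the groups did not overlap in 1.07% of all genes and in 0 of the 7. Of the 7 log2 fold changes, 3 were positive and 4 negative, with a median of -0.02 beside 0.01 for all genes tested. Without antimiR-195 replicate 2 they were 4 positive and 3 negative. The 95% intervals of the log2 fold change show what these libraries could resolve: they ran from -0.29 to 0.30 for Ece1, from -0.20 to 0.42 for Ednrb, from -0.37 to 0.34 for Ace and from -0.95 to 0.16 for Agt. For Agtr1a the interval ran from -0.75 to 0.29, for Ednra from -0.62 to 0.16 and for Edn1 from -0.20 to 0.76. No interval excluded 0, and a p above the threshold does not show that the groups were alike.

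**Figure D2:**
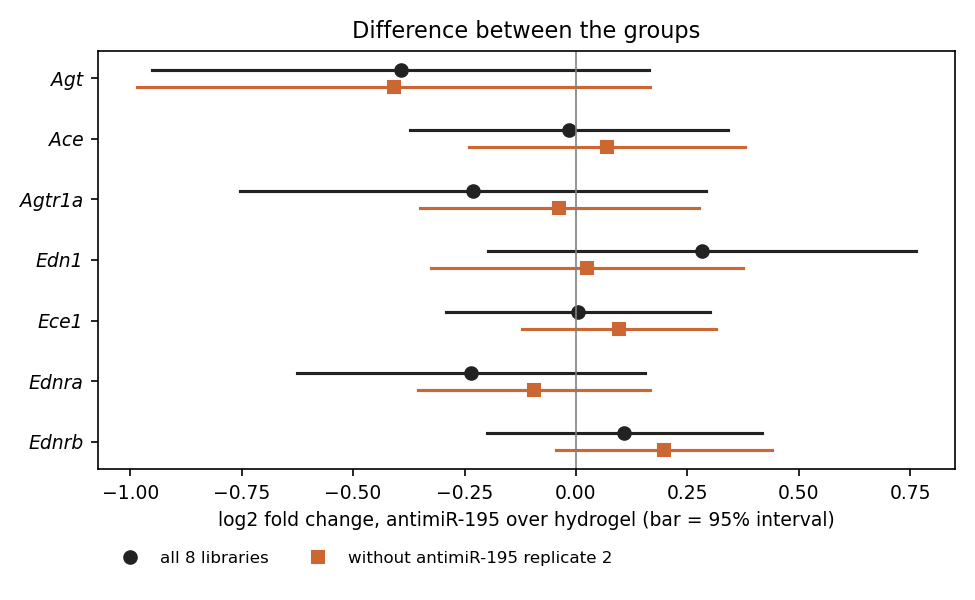
Log2 fold change of antimiR-195 over hydrogel (horizontal axis) for each gene with its 95% interval, from all 8 libraries (circles) and without antimiR-195 replicate 2 (squares). Every interval crosses 0, and the points of Agtr1a, Edn1 and Ednra move towards 0 without that library while those of Ednrb and Ece1 move up.

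Per gene length, the angiotensin receptor and both processing enzymes were more abundant than the peptide precursors. Over the 8 libraries Agtr1a was highest at 16.5 ± 3.84 RPKM (SD, n = 8), followed by Ece1 at 14.5 ± 1.67 and Ace at 12.9 ± 2.15 RPKM. The endothelin receptors came next, with Ednrb at 7.49 ± 0.979 and Ednra at 6.75 ± 1.28 RPKM. The precursors Edn1 and Agt were lowest, at 2.33 ± 0.661 and 2.31 ± 0.611 RPKM. The order had 2 steps at which neighbours did not overlap: Ace exceeded Ednrb and Ednra exceeded Edn1 in all 8 libraries. Agtr1a, however, reached down to 8.63 RPKM in antimiR-195 replicate 2, level with the highest library of Ednrb at 8.63 RPKM. The other neighbours did not differ beyond their spread, since Agtr1a exceeded Ece1 in 6 libraries, Ednrb exceeded Ednra in 5 and Edn1 exceeded Agt in 4 of 8. Ece1 exceeded Ace in 7 of 8 libraries with overlapping ranges.

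**Figure D3:**
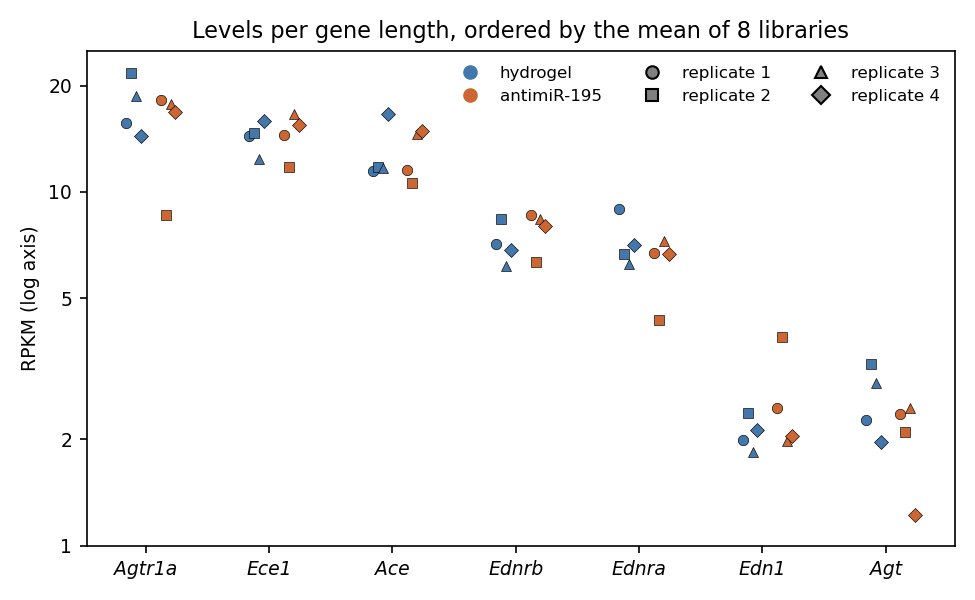
RPKM on a log axis for each gene in each of the 8 libraries, coloured by group with marker shapes for the replicates, ordered by the mean over all libraries. Every point of Ace lies above every point of Ednrb, and every point of Ednra above every point of Edn1, while the lowest point of Agtr1a reaches the level of Ednrb.

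The balance of the endothelin receptors within a library does not depend on library scaling and was compared as the ratio of Ednra to Ednrb in RPKM. It was 1.26, 0.795, 1.01 and 1.03 in hydrogel replicates 1 to 4 and 0.780, 0.682, 0.867 and 0.833 in antimiR-195 replicates 1 to 4. All antimiR-195 libraries and hydrogel replicate 2 had more Ednrb than Ednra, and the other 3 hydrogel libraries had more Ednra, so the groups overlapped through hydrogel replicate 2. The mean log2 ratio was 0.02 ± 0.27 with hydrogel and -0.35 ± 0.15 with antimiR-195 (SD, n = 4), a difference of -0.36, and the two-sided exact permutation test over the 70 assignments of libraries gave p = 0.0857, where the smallest possible p is 0.0286. With each library left out in turn the difference in the ratio ran from -0.48 to -0.26. It was -0.29 without antimiR-195 replicate 2 (exact permutation p = 0.114) and -0.26 without hydrogel replicate 1 (exact permutation p = 0.171). Hydrogel replicate 2 is the library through which the groups overlap, so leaving it out separates them completely and gives -0.48 with the smallest exact permutation p that 7 libraries allow, 0.0286. The other omissions gave an exact permutation p of 0.0857 to 0.171.

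**Figure D4:**
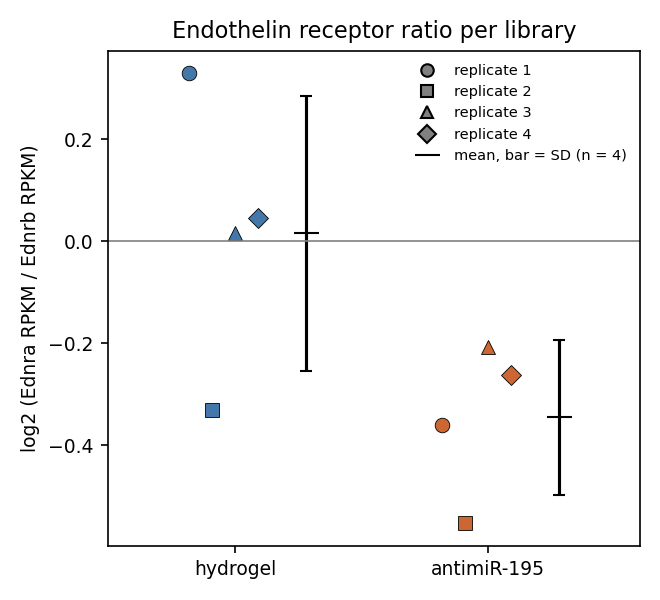
Log2 ratio of Ednra to Ednrb in RPKM (vertical axis; 0 means equal levels per length) for each library, with group mean and SD. All 4 antimiR-195 libraries lie below 0, and 3 of 4 hydrogel libraries above it.

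The genes varied among libraries by more than counting error. The coefficient of variation over the 8 libraries was 28.2% for Agt, 26.1% for Edn1, 25.0% for Agtr1a, 19.2% for Ednra, 16.4% for Ace, 13.4% for Ednrb and 11.7% for Ece1. Counting alone would give 11.6% for Agt, 10.2% for Edn1 and 2.66% to 4.25% for the rest. Without antimiR-195 replicate 2 the variation of Edn1 was 9.44%, below its counting error, and that of Agtr1a 15.0%, while that of Agt stayed at 29.4%. The spread of Agt thus did not rest on that library, and its level was 2.70 times as high in hydrogel replicate 2 as in antimiR-195 replicate 4.

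Deviations of a library from the others ran with transcript length in several libraries. The Spearman rho of deviation with length, across genes, was -0.46 in antimiR-195 replicate 2, 0.55 in antimiR-195 replicate 3, -0.33 in hydrogel replicate 3, 0.34 in hydrogel replicate 4 and 0.31 in antimiR-195 replicate 4. AntimiR-195 replicate 3 ran the other way from replicate 2, with medians of -0.28 on the log2 scale for short and 0.17 for long genes, classed as below. For antimiR-195 replicate 2, which had the largest median deviations of the 8 libraries in the short and long classes, the members are given by length class. Relative to the mean of the other libraries, its median deviation was 0.47 on the log2 scale for the 3035 genes under 2000 bases, 0.06 for the 4790 of 2000 to 4000 bases and -0.24 for the 6147 of 4000 bases or more. Ace, Ece1 and Ednrb, all over 4000 bases, deviated by -0.36, -0.39 and -0.32, near that median. Agt, under 2000 bases, deviated by -0.16, with 15.7% of its class lower. Ednra deviated by -0.76, lower than all but 11.8% of its length class. Agtr1a and Edn1 share the middle class, and there Agtr1a deviated by -1.07, with 3.57% of the class lower, and Edn1 by 0.82, with 93.6% lower. The part of length in the values of the longer genes was not tested.

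**Figure D5:**
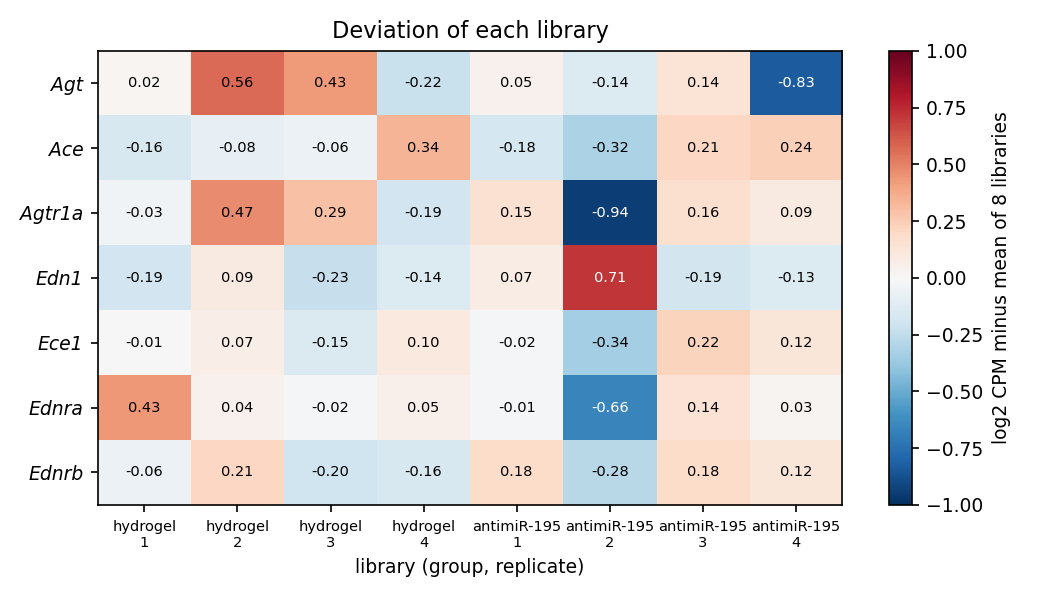
Log2 CPM of each gene in each library minus that gene's mean over the 8 libraries (colour and printed value). The column of antimiR-195 replicate 2 holds the lowest values of 5 genes and the highest of Edn1, and Agt is lowest in antimiR-195 replicate 4.

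Correlations among the 7 genes over the 8 libraries were computed for 21 pairs on log2 CPM, and no pair passed Benjamini-Hochberg adjustment. Edn1 ran against Ednra, with Pearson r = -0.878 (exact permutation p = 0.0233, adjusted 0.187) and Spearman rho = -0.43 (exact permutation p = 0.299, adjusted 0.686). Without the 2 libraries farthest from the median of Edn1 the r was -0.357, and without antimiR-195 replicate 2 alone it was -0.362, so the relation rested on that library. Ace ran with Ece1, with r = 0.783 (exact permutation p = 0.0161, adjusted 0.187) and rho = 0.76 (exact permutation p = 0.0368, adjusted 0.386). For this pair r was 0.838 without hydrogel replicate 4 and antimiR-195 replicate 4, the 2 farthest libraries, and 0.678 without antimiR-195 replicate 2. At an unadjusted Pearson p below 0.05 there were 4 pairs with all libraries and 0 without antimiR-195 replicate 2.

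Each gene was also set beside marker genes of 6 cell types: endothelial cells, fibroblasts, pericytes, smooth muscle, cardiomyocytes and macrophages. All markers of these lists were detected. The correlations used the mean log2 CPM of a list, in which every marker has the same weight, and not the summed level given below. None of the 42 correlations passed adjustment, the smallest adjusted p of a Pearson exact permutation test being 0.261. Agtr1a had r = -0.871 with the smooth muscle markers (exact permutation p = 0.0127, adjusted 0.261; rho = -0.67, exact permutation p = 0.0831, adjusted 0.718), and -0.504 without its 2 farthest libraries. The summed level of the 7 smooth muscle markers was 2770 to 3512 CPM with hydrogel and 2805 to 4530 CPM with antimiR-195, highest in antimiR-195 replicate 2. Among these 7, Des, which cardiomyocytes also express strongly, was highest per length at a mean of 738 RPKM, followed by Acta2 at 140 RPKM, while Myh11, Cnn1 and Lmod1 were at 4.12, 1.73 and 0.764 RPKM, so the sum does not measure smooth muscle alone. The 8 pericyte markers summed to 702 to 864 CPM with hydrogel and 508 to 1036 CPM with antimiR-195, lowest in antimiR-195 replicate 2. The 10 endothelial markers, the cells in which Edn1, Ace and Ednrb are best known, summed to 916 to 1090 and 951 to 1085 CPM and had 973 CPM in that library. Whether cell composition contributed to the levels of the 7 genes was not tested.

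The genes whose pattern over the 8 libraries was most like each of the 7 were found among 13084 genes whose mean log2 CPM was 0 or more, by Pearson r and as a description. They were picked for the highest r with all 8 libraries, so a high r was built into the choice. No chance level was computed. For Agtr1a they were Zfp770, Trim23 and Dcaf12, with r of 0.991, 0.981 and 0.977. For Edn1 they were Elp6, Trim28, a corepressor of transcription, and Plxna4os1, with r of 0.990, 0.989 and 0.982. For Ednra they included Atr and Mtrex (0.986 and 0.975), and for Ednrb Mier3, Tead3 and Smad5 (0.967, 0.958 and 0.955). Ece1 was nearest to Map3k7, Nbea and Dpp8 (0.996, 0.995 and 0.993) and Ace to Nckap5l, Mtmr2 and Wipi1 (0.969, 0.967 and 0.964). For Agt they were Actl6a, Sfrp5 and Slc35g2 (0.941, 0.930 and 0.912). Without antimiR-195 replicate 2 the r of the genes named here ran from 0.867 for Plxna4os1 to 0.989 for Map3k7.

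Of 20 further genes of angiotensin formation, breakdown and reception, 15 had enough counts to be tested. The upstream protease renin was not detected: Ren1 had 0 counts in every library, as did Agtr1b, the other type 1 receptor gene of the mouse, which allows a level of up to 0.178 CPM in the shallowest library (3 counts). Agtr2, the type 2 receptor, had 2 counts in 1 library and 0 elsewhere. The highest of the 20 per length was Ctsd at 735 ± 118 RPKM (SD, n = 8). Below it were the prorenin receptor Atp6ap2 at 13.4 ± 1.46 RPKM and prolyl endopeptidase Prep at 13.7 ± 2.65 RPKM. Agtrap, whose product binds the type 1 receptor, was at 11.6 ± 0.925 RPKM. The mast cell chymase Cma1 was at 1.30 ± 0.388 RPKM and neprilysin, Mme, at 0.992 ± 0.33 RPKM.

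The log2 fold changes of these 15 genes were positive in 6 and negative in 9, the median was -0.02, and no gene was called. The median ran from -0.11 to 0.01 with single libraries left out. Cpa3, a mast cell carboxypeptidase that acts on angiotensin I, was 0.634, 0.733, 0.553 and 0.721 CPM in the hydrogel libraries and 1.18, 1.09, 1.02 and 0.967 CPM in the antimiR-195 libraries, so the groups did not overlap. Its log2 fold change was 0.69 ± 0.24 at 12 to 21 counts per library, with an adjusted p of 0.9999 by edgeR. Cpa3 was the 1 gene of the 15 at an unadjusted p below 0.05 by edgeR, beside 1.27% of all genes. It was also the 1 gene of the 15 with groups that did not overlap, beside 1.07% of all genes. The 6 mast cell markers, Cpa3 among them, summed to 7.50 to 11.6 CPM with hydrogel and 9.79 to 11.2 CPM with antimiR-195, and Cma1 and Mcpt4, the mast cell proteases that share the list, had log2 fold changes of 0.00 ± 0.31 and -0.21 ± 0.32. The part of mast cell number in the Cpa3 value was not tested. Agtrap was at -0.16 ± 0.11, and Mas1, the receptor of angiotensin 1-7, at 0.45 ± 0.37, which ran from 0.21 without antimiR-195 replicate 4 to 0.62 without hydrogel replicate 2.

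On the endothelin side 6 of 9 further genes were tested, 1 positive and 5 negative, with a median log2 fold change of -0.04 (-0.13 to 0.01 with single libraries left out) and 0 past the threshold. Edn2 had 0 to 3 counts per library, and Edn3 was at 0.173 ± 0.045 RPKM (SD, n = 8), so Edn1 was the endothelin gene with the highest level per length. Furin, a convertase that can cut the Edn1 precursor, was at 11.3 ± 1.28 RPKM and Ece2, another converting enzyme, at 1.30 ± 0.271 RPKM. The genes of smallest p were Pcsk5 at -0.19 ± 0.21, Ece2 at 0.15 ± 0.18 and Pcsk6 at -0.09 ± 0.16. Single omissions moved Pcsk5 from -0.33 (antimiR-195 replicate 3) to -0.06 (hydrogel replicate 2). Ece2 turned to -0.06 without antimiR-195 replicate 2, and Pcsk6 ran from -0.21 without hydrogel replicate 1 to 0.03 without hydrogel replicate 3.

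Downstream of the receptors, 30 signalling genes were tested, 14 positive and 16 negative, with a median of -0.01 (-0.07 to 0.01 with single libraries left out) and 0 past the threshold. Rgs2, which shuts off Gq signalling, was 35.8 ± 7.12 CPM with hydrogel and 29.4 ± 5.71 CPM with antimiR-195 (SD, n = 4), and the log2 fold change was -0.29 ± 0.17. Without antimiR-195 replicate 2 the value for Rgs2 was -0.44 ± 0.15 (edgeR, adjusted p 0.9992), and it was -0.18 without hydrogel replicate 3. The arrestin Arrb1 was at -0.17 ± 0.11 and the G protein gene Gna12 at -0.22 ± 0.17, or -0.10 without antimiR-195 replicate 2 and -0.13 without hydrogel replicate 3.

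Of 19 genes known to respond to angiotensin II or endothelin-1 in heart tissue, 18 lay above 0 on the log2 fold change scale. Of all 13972 genes tested, 7326 did so. The median was 0.26 beside 0.01 for all genes, and no gene was called. At an unadjusted p below 0.05 edgeR's quasi-likelihood test had 2 of the 19, beside 1.27% of all genes. The list was chosen with earlier results of these data known. AntimiR-195 replicate 2 was the highest library for 11 of the 19, beside 30.8% of all tested genes. Without it 13 were positive, with a median of 0.12, and 0 were at an unadjusted p below 0.05. The median was also 0.14 without hydrogel replicate 3 and 0.39 without hydrogel replicate 4, and 0.05, with 13 positive, in limma-voom with quality weights. Acta1, the fetal-type skeletal actin, was 463 ± 154 and 714 ± 239 CPM (SD, n = 4), and the log2 fold change was 0.62 ± 0.28, or 0.37 with that library left out. Ccl2, a monocyte chemokine, was at 0.49 ± 0.21, or 0.25 without it. The 10 macrophage markers summed to 1560 to 2118 CPM with hydrogel and 1326 to 2243 CPM with antimiR-195, and 6 neutrophil markers, of which Ly6g was at 0, to 26.0 to 31.8 and 23.3 to 69.1 CPM, both highest in antimiR-195 replicate 2. Their part in the values of the responsive genes was not tested.

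The aldosterone arm, whose synthesis angiotensin II drives in the adrenal, had 5 of 9 genes tested, 1 positive and 4 negative, with a median of -0.09 (-0.22 to -0.0021 with single libraries left out) and 0 past the threshold. Cyp11b2, the aldosterone synthase, had 0 counts in every library. Hsd11b1, which regenerates active glucocorticoid, was at -0.40 ± 0.21, or -0.29 without antimiR-195 replicate 2 and -0.21 without hydrogel replicate 3. Tsc22d3 was at -0.15 ± 0.21, from -0.30 without antimiR-195 replicate 1 to -0.02 without antimiR-195 replicate 2. Sgk1 was at -0.09 ± 0.17, from -0.22 without hydrogel replicate 1 to -0.0012 without hydrogel replicate 4, and at -0.0097 without antimiR-195 replicate 2. Of the opposing vasodilator genes 14 of 19 were tested, 4 positive and 10 negative, with a median of -0.06 (-0.11 to -0.02 with single libraries left out) and 0 past the threshold. Adm, the vasodilator adrenomedullin, was 7.69 ± 1.32 and 6.06 ± 0.776 CPM (SD, n = 4), and the log2 fold change was -0.35 ± 0.17, or -0.23 without hydrogel replicate 3. Gucy1a1 was at -0.16 ± 0.17, from -0.27 without antimiR-195 replicate 4 to -0.04 without antimiR-195 replicate 2. The natriuretic peptide receptor Npr1 was at -0.08 ± 0.12, from -0.14 without hydrogel replicate 4 to -0.02 without antimiR-195 replicate 2.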

How the data were processed

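Polyadenylated RNA of 8 left ventricle samples was sequenced from stranded TruSeq libraries, per the labels' protocols; STAR, HTSeq, DESeq and GRCm38 are named in the submitters' processing notes, without versions, and for the annotation release and the strand setting a value was not given in the sources used here. Whole-number counts per Ensembl gene and RPKM values were deposited by the authors. Library and series tables held the same counts (0 cells differed). The implied gene length was the same in all libraries. Lines naming no gene were left out: reads outside genes were 6.38% to 7.55% of uniquely aligned reads, and alignments to several places 42.1% to 47.8% of all lines. AntimiR-195 replicate 2 had the highest share at several places, 47.8%, against 44.5% in the next library, hydrogel replicate 3. It also had the lowest share outside genes, 6.38%, and the highest share ambiguous between genes, 1.05% against at most 0.897% elsewhere. The part of these differences in its gene levels was not tested. Identifiers were named from GENCODE M21 (36345 of 38293).

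Genes were filtered with filterByExpr (13972 kept, all 7 members included), scaled with TMM factors of 0.953 to 1.04, and tested with edgeR 4.0.16 (quasi-likelihood, all 8 libraries, no covariates) in R 4.3.3, with Benjamini-Hochberg adjustment over all genes and a threshold of 0.05. CPM uses the TMM-scaled library sizes. Log2 CPM has a prior count of 2. The code was tested on simulated data. P-values measure the spread between libraries, which no label ties to separate animals. Antisense partners cannot be told apart where counting ignored strand. Those of Ace, Ednra and Ece1 had at most 1, 49 and 6 counts per library. The antisense partner of Edn1 and a same-strand intronic gene in Agtr1a were not counted, so no such limit can be given for them.

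The members, gene lists and tests were chosen with earlier results of these data known. Named in the text are the 7 members, the 3 tested genes of smallest p in each pathway list, and the 3 genes of highest r per member, except items that are not reported here. Cma1, Mcpt4 and genes given with a level only (the ventricular, atrial and smooth muscle markers named, Ly6g, Ren1, Agtr1b, Agtr2, Ctsd, Atp6ap2, Prep, Mme, Edn2, Edn3, Furin and Cyp11b2) were chosen after their values were seen. Alternatives were DESeq2 1.42.0, the likelihood ratio test, limma 3.58.1 (voom with quality weights, and log2(RPKM + 0.1)), RLE and upper-quartile factors, other count filters, and each library left out in turn.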

Additional observations from a re-analysis of the deposited data

Results flagged for a closer look

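In 16 groups of 4 values (7 genes and the receptor ratio in each group), 3 held a library whose gap to its nearest neighbour, as a share of the group's range, exceeded Dixon's 95% critical value. Chance alone gives about 1 in 20 independent groups. These groups share libraries, and the ratio is built from Ednra and Ednrb, so the 3 cannot be set against that rate. Agtr1a in antimiR-195 replicate 2 was 20.5 CPM, and the gap was 0.912 of the range. Ednrb in the same library was 24.8 CPM, with a gap of 0.854 of the range. Ednra in hydrogel replicate 1 was 49.0 CPM, with a gap of 0.872 of the range, and without this library the log2 fold change of Ednra was -0.13.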

How the results depend on the processing

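No paired analysis was possible because the replicate numbers follow accession order and the labels pair no libraries. The number of genes past the threshold was 0 in all 16 alternatives, with 104 to 428 genes at an unadjusted p below 0.05, and no member passed in any. Agt reached an unadjusted p of 0.0343 only in limma-voom with quality weights, at -0.61 and an adjusted p of 0.9999, where antimiR-195 replicate 2 had the lowest weight, 0.162. Agt, Agtr1a, Edn1, Ednra and Ednrb kept their direction in all 16. Ace turned to 0.14 in limma-voom and to 0.0051 on log2(RPKM + 0.1), and Ece1 to -0.0018 with at least 10 counts in every library; both lie near 0. With each library left out in turn, Ace turned positive without hydrogel replicate 4 (0.10), antimiR-195 replicate 1 (0.04) and antimiR-195 replicate 2 (0.07). Ece1 turned negative without hydrogel replicates 1 (-0.0077) and 3 (-0.04) and antimiR-195 replicates 3 (-0.0739) and 4 (-0.04). Log2 fold changes ran from -0.11 to 0.10 for Ace, -0.0739 to 0.10 for Ece1, -0.52 to -0.23 for Agt, -0.34 to -0.04 for Agtr1a, 0.03 to 0.38 for Edn1, -0.32 to -0.09 for Ednra and 0.06 to 0.20 for Ednrb. The difference in the Ednra to Ednrb ratio ran from -0.48 to -0.26 and was -0.31 with 1 added to both values. No correlation passed by Pearson r in any alternative. By Spearman rho on deviations from the group means, Agtr1a and Ednrb passed, with rho = 0.93 and an adjusted exact permutation p of 0.0469. That permutation exchanged the deviations freely across groups although they were centred within each group, so this p can be too small. On the values themselves their rho was 0.64 (adjusted exact permutation p = 0.483), 0.46 without antimiR-195 replicate 2 and 0.14 without hydrogel and antimiR-195 replicates 2, the 2 farthest libraries. Agt and Edn1 had 41 to 161 counts per library. Counting alone would give Agt a coefficient of variation of 11.6%, beside 28.2% observed. For Edn1 it would give 10.2%, beside 26.1% observed and 9.44% without antimiR-195 replicate 2.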
